A study of Mus musculus with 2 samples.

Results

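The elastic fiber and microfibril genes examined here are 10 genes taken by symbol from the 31053 genes of the deposited matrices. They are the elastin gene *Eln*, the fibrillin genes *Fbn1* and *Fbn2*, the fibulin genes *Fbln5*, *Efemp1* and *Efemp2*, the microfibril-associated genes *Mfap4* and *Mfap5*, and the lysyl oxidase genes *Lox* and *Loxl1*. All 10 were present in the matrices and passed the filter on low counts in every comparison described here. They were measured by scRNA-seq in primary VSMCs that had grown for 5 days in serum-containing medium, with 2 libraries that the labels call biological replicates 1 and 2. The cells came from thoracic aortae of wild type C57BL6/N mice, carried no engineered allele and received no agent, so there was 1 condition and the comparisons were made between classes of cells within the cultures. Aortae of several mice were pooled for a preparation, so a library does not stand for 1 animal, and the cells had left the vessel wall.

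Elastic fibers give large arteries their recoil. They hold a core of cross-linked elastin on a scaffold of fibrillin microfibrils: cells secrete soluble tropoelastin, fibulins help to deliver it to the microfibrils, and lysyl oxidases join its lysines into an insoluble polymer. In the aortic media, smooth muscle cells are the main producers of these proteins, and most elastin is laid down before and soon after birth.

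Barcodes counted as cells from 300 genes and 3000 unique molecular identifiers (UMIs, each standing for 1 captured mRNA molecule) upward, if under 20% of their UMIs were mitochondrial. This left 4866 and 6824 cells in replicates 1 and 2, with median depths of 22234.5 and 16310 UMIs, and 9 barcodes passed in both libraries. Myh11 high cells had 5 or more UMIs of *Myh11*, the smooth muscle myosin heavy chain, and were 473 cells (9.72%) and 879 cells (12.9%). Myh11 low cells had 1 UMI or none and were 3954 and 5362 cells. Pdgfra positive cells had at least 1 UMI of *Pdgfra*, a receptor gene of mesenchymal cells (3468 and 3893 cells), and cycling cells had at least 6 UMIs summed over *Mki67*, *Top2a* and *Cenpf* (1450 and 1651 cells). These 4 classes overlapped, and they left out the endothelial cells (ECs), which had at least 2 UMIs in each of at least 2 of *Pecam1*, *Cdh5*, *Cldn5* and *Gja4* and were 102 and 141 cells. The classes were described by marker genes that their rules did not use. The 7 contractile smooth muscle markers other than *Myh11* summed to 24259 and 24484 CPM (the count of a gene's UMIs scaled so that every class has the same total) in Myh11 high cells and to 6714 and 3646 CPM in Myh11 low cells. The 4 endothelial markers outside the rule (*Tie1*, *Egfl7*, *Emcn* and *Kdr*) summed to 1537 and 1870 CPM in ECs and to between 2.78 and 8.66 CPM in the other classes. Summed markers of macrophages (at most 28.6 CPM), Schwann cells (at most 31.3 CPM) and mesothelium (at most 6.998 CPM) were low in every class, and 6 markers of adventitial fibroblasts summed to between 394.7 and 651 CPM in all 5 classes. These 6 did not move together. *Gsn* was higher in Myh11 high than in Myh11 low cells (335 and 325 against 255 and 244 CPM). *Serpinf1* (276 and 47.8 against 348 and 210 CPM), *Dpt*, *Clec3b*, *Pi16* and *Cd34* were lower there in both libraries. In ECs *Cd34* had 265 and 405 CPM. Levels are CPM of the UMIs summed over the cells of a class in 1 library. UMIs of a 3′ library count molecules and are not per transcript length, so levels were compared between classes and not between genes.

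*Eln*, which encodes tropoelastin (chr5:134702593-134747323, minus strand, GRCm38), was high in Myh11 high cells. Its level there was 1300 CPM in replicate 1 and 2296 CPM in replicate 2, against 161 and 413 CPM in Myh11 low cells. Both libraries of the Myh11 high class were above both of the Myh11 low class, and within a library the level was 8.09-fold higher in replicate 1 and 5.56-fold higher in replicate 2. Myh11 high cells were the smaller class, but they held 48.4% and 46.5% of all *Eln* UMIs of their libraries. The levels in Pdgfra positive cells were 190 and 461 CPM, close to those of the Myh11 low cells that made up most of this class. Cycling cells had 312 and 851 CPM, and this class included 160 and 305 Myh11 high cells. ECs had the lowest levels, at 69.3 and 196 CPM.

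Single Myh11 high cells spread widely in *Eln*. In replicate 1 the 10th percentile was 0 CPM per cell, the median 521 CPM and the 90th percentile 4180 CPM, and in replicate 2 these were 195, 1777 and 6040 CPM. In Myh11 low cells the medians per cell were 31.8 and 80.9 CPM and the 90th percentiles 485 and 1133 CPM. The distributions of the 2 classes thus overlapped cell by cell, with the 90th percentile of the Myh11 low cells near or below the median of the Myh11 high cells of the same library. A UMI of *Eln* was found in 83.1% (exact 95% interval 79.4 to 86.4) and 96.5% (95.0 to 97.6) of the Myh11 high cells and in 53.9% (52.3 to 55.4) and 63.5% (62.2 to 64.8) of the Myh11 low cells. In ECs the shares were 26.5% and 29.1%. Median depths were 25667 and 21018 UMIs in Myh11 high cells, 21979 and 15640 in Myh11 low cells, and 14629 and 10250 in ECs. After all cells were thinned to 3000 UMIs the expected shares were 62.0% and 87.3% in Myh11 high cells, 23.6% and 36.5% in Myh11 low cells, and 7.70% and 10.4% in ECs, so the order was kept at equal depth. Intervals and floors cover counting error only. *Eln* was also present in free RNA, taken from barcodes with at most 100 UMIs, at 323 and 790 CPM. These levels were above those of Myh11 low cells (161 and 413 CPM) and below those of Myh11 high cells. The part of free RNA in the *Eln* shares and levels of Myh11 low cells was not tested.

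**Figure D1:**
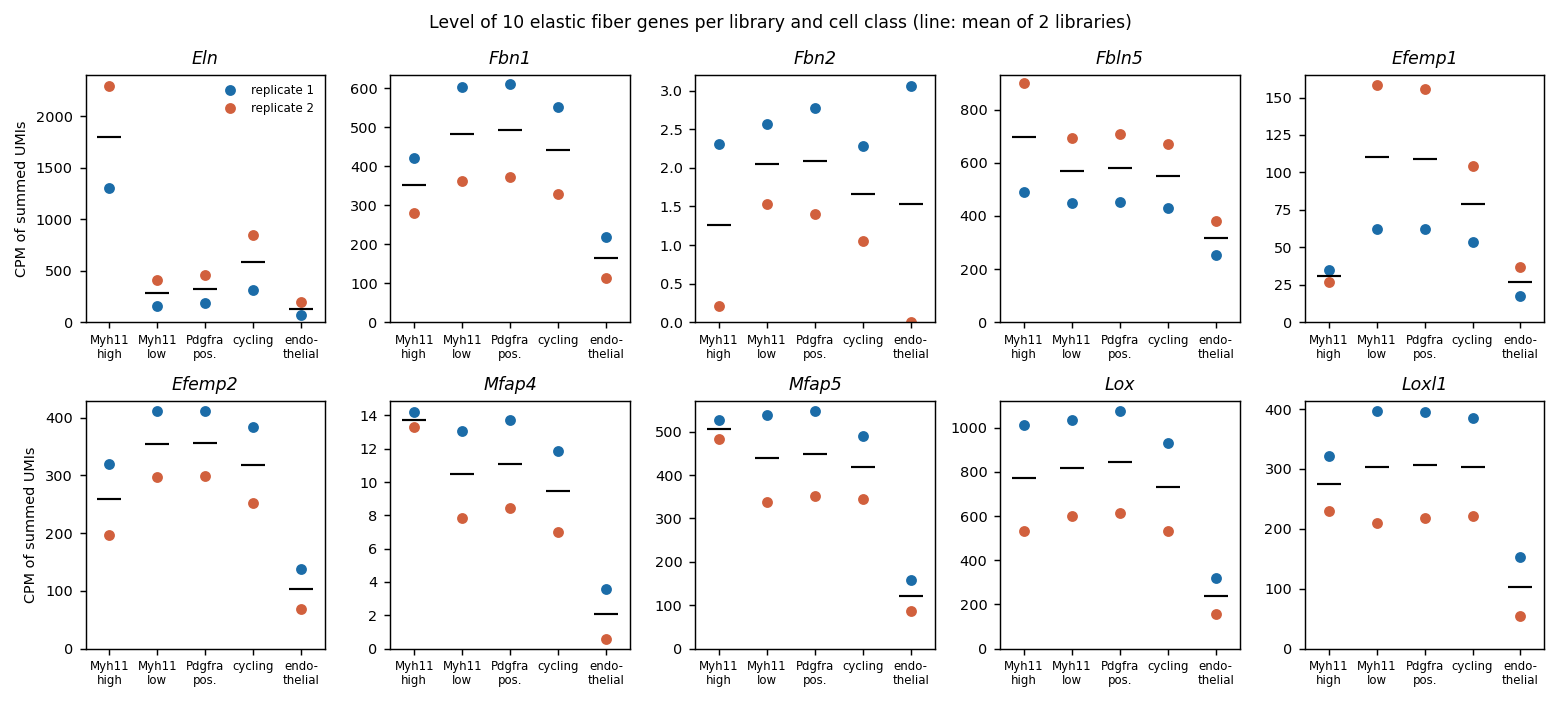
Level of each of the 10 genes in 5 cell classes, as CPM of the summed UMIs on a linear axis that starts at 0; points are the 2 libraries and black lines their mean. *Eln* stands at 1300 and 2296 CPM in Myh11 high cells and under 900 CPM in every other class, *Efemp1* is lower in Myh11 high than in Myh11 low cells, and 9 of the genes are lowest in ECs by their mean, the exception being *Fbn2*, which is near 0 throughout.

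The fibrillins form the microfibrils on which elastin is laid. *Fbn1* (chr2:125300594-125507993, minus strand), mutated in Marfan syndrome, had 421 and 281 CPM in Myh11 high cells and 603 and 363 CPM in Myh11 low cells. It was lower in Myh11 high cells in each library, but the ranges of the classes overlapped, since replicate 1 was above replicate 2 in all 5 classes. *Fbn1* was found in 92.7% or more of the Myh11 low cells and 95.8% or more of the Myh11 high cells of a library. *Fbn2* (chr18:58008623-58210487, minus strand), the fibrillin of developing tissue, was near the limit of detection. Its highest level in these 5 classes was 3.06 CPM, in the ECs of replicate 1, where 3 cells held its 6 UMIs, and cells with 2 to 4 *Myh11* UMIs had 3.89 CPM in that library. In replicate 2 a UMI was found in 0 of 141 ECs, which by the limit of 3 counts allows a share of cells with a UMI of up to 2.13% (exact 95% upper limit 2.58%). In Myh11 low cells *Fbn2* had 2.57 and 1.53 CPM and was found in 4.02% and 1.88% of cells.

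The fibulins link tropoelastin, microfibrils and the cross-linking enzymes, and their 3 genes here did not share a pattern. *Fbln5* (chr12:101746565-101819055, minus strand) encodes fibulin-5, which binds elastin and cell surface integrins. It had 492 and 900 CPM in Myh11 high cells, 447 and 693 CPM in Myh11 low cells, and 254 and 383 CPM in ECs. *Efemp2* (chr19:5473954-5482517, plus strand) encodes fibulin-4, which brings lysyl oxidase to tropoelastin, and had 320 and 198 CPM in Myh11 high cells, 411 and 297 CPM in Myh11 low cells, and 137 and 68.0 CPM in ECs. In both genes the ranges of Myh11 high and Myh11 low cells overlapped. *Efemp1* (chr11:28853204-28926743, plus strand) encodes fibulin-3, a fibulin needed for the elastic fibers of fascia. Its levels were 34.7 and 26.6 CPM in Myh11 high cells and 62.1 and 158 CPM in Myh11 low cells, so that both libraries of the Myh11 high class were below both of the Myh11 low class. A UMI of *Efemp1* was found in 35.7% and 23.4% of Myh11 high cells and in 53.8% and 68.9% of Myh11 low cells, and after thinning in 8.16% and 5.79% against 14.9% and 31.7%. In ECs its levels were 17.8 and 36.5 CPM, within reach of those in Myh11 high cells.

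The 250 bases upstream of 1 annotated start of each of the 3 fibulin genes are given because these relatives differed in their pattern over the classes. For *Efemp2* 3 starts were listed and for *Fbln5* 2, and the start nearest the annotated 5′ end of the gene was used. Windows of the other starts are not described. The sequences are from RefSeq (GRCm38.p6), at chr11:28852955-28853204 on the plus strand for *Efemp1*, chr19:5473696-5473945 on the plus strand for *Efemp2* and chr12:101819120-101819369 on the minus strand for *Fbln5*. They are written 5′ to 3′ on the strand of the gene, and capitals mark matches to the motifs searched.
Efemp1: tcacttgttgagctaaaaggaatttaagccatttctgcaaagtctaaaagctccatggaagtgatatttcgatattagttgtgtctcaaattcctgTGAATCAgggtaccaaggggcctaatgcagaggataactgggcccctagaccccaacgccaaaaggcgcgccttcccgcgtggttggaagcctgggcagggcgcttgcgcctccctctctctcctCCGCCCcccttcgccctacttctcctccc
Efemp2: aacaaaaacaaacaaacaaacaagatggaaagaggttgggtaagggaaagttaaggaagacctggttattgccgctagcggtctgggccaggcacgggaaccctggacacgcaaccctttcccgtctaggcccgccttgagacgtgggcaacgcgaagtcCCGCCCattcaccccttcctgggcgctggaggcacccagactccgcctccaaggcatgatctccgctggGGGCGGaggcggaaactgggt
Fbln5: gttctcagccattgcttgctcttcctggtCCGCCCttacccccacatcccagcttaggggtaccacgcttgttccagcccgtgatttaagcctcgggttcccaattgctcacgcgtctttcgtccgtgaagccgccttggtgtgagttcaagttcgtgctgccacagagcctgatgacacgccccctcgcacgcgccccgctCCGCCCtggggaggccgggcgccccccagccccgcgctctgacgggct
The motifs were searched on both strands and were the GC box GGGCGG, the AP-1 motif TGANTCA, the TEAD motif GGAATG, the TATA box TATAAA and the CArG box, a smooth muscle promoter element. All 3 windows held a GC box (1 in *Efemp1*, 2 each in *Efemp2* and *Fbln5*), as did 32.7% of the 32851 mouse promoter windows of the same length. *Efemp1* also held 1 match to the AP-1 motif as searched, in which N allows any base. The matched stretch was TGAATCA, and 6.75% of all windows held a match to this pattern with N. None of the 3 windows held a TATA box, TEAD motif or CArG box, which 12.4%, 12.6% and 1.47% of all windows held. The window of *Fbn1*, not shown, held 1 GC box and no other match. Such windows were searched for 4 of the 10 genes, and *Fbn2* and *Lox* were left out of the search.

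The microfibril-associated proteins sit on the microfibrils. *Mfap5* (chr6:122505845-122529290, plus strand), which encodes MAGP-2, a small glycoprotein that binds fibrillin and Notch ligands, had 528 and 483 CPM in Myh11 high cells and 539 and 339 CPM in Myh11 low cells. *Mfap4* (chr11:61485431-61488900, plus strand), which encodes a fibrinogen-related protein of elastic fibers, was a low-level gene with 14.2 and 13.3 CPM in Myh11 high cells and 13.1 and 7.84 CPM in Myh11 low cells. In replicate 2 both were higher in Myh11 high cells, while in replicate 1 the classes were nearly level. A UMI of *Mfap4* was found in 23.7% and 17.2% of Myh11 high cells, and in 3.92% and 0.709% of ECs.

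The lysyl oxidases make the cross-links. *Lox* (chr18:52516067-52529867, minus strand), whose loss causes aortic aneurysm in mice, had 1013 and 531 CPM in Myh11 high cells and 1033 and 601 CPM in Myh11 low cells. *Loxl1* (chr9:58287738-58313186, minus strand), which is needed to renew elastic fibers in adult tissue, had 322 and 229 CPM in Myh11 high cells and 397 and 210 CPM in Myh11 low cells. For neither gene did the Myh11 high and Myh11 low values lie apart beyond the spread of the libraries. In ECs *Lox* had 319 and 156 CPM and *Loxl1* 152 and 54.3 CPM, below every value of the other classes for both genes.

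The comparison of Myh11 high with Myh11 low cells asks how the elastic fiber genes stand in cells with high and with low contractile expression. It was tested with edgeR (quasi-likelihood F test, Benjamini-Hochberg adjustment over all genes tested, threshold 0.05) on the sums per library and class. For *Eln* the fitted log2 fold change was 2.71 (SE 0.81, n = 2 libraries), with an edgeR p of 0.0135 and an adjusted p of 0.191. For *Efemp1* it was -1.78 (SE 0.47), with an adjusted p of 0.144. Of the 10 genes, 0 passed the threshold without a block, where 0.825% of the 12975 genes tested were called higher and 0.139% lower. An unadjusted edgeR p under 0.05 was found for 2 of the 10 genes and for 1908 of the 12975. The sums of 1 library come from the same culture, and with the library as a block *Eln* rose by 2.83 on the log2 scale (SE 0.23, adjusted p = 0.00148 in edgeR) and *Efemp1* fell by 1.69 (SE 0.40, adjusted p = 0.0322), while the other 8 genes did not pass. With the block, 8.51% of all genes were called higher and 7.53% lower.

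Differences within a single library were taken on the scale of log2 (CPM + 1), which understates them for low genes, and have no test. *Eln* differed by 3.01 in replicate 1 and by 2.47 in replicate 2, and *Efemp1* by -0.82 and -2.53, so its size rested on the library more than that of *Eln* did. *Eln* was the only one of the 10 genes past 2-fold in the same direction in both libraries, as were 4.41% of all genes tested. The fitted log2 fold changes of the other 8 genes lay between -0.70 for *Fbn2* (SE 1.33) and 0.44 for *Mfap4* (SE 0.47), and none was larger than its SE. With the block, the 3 genes nearest to the threshold were *Fbln5* at 0.32 (adjusted p = 0.0548), *Efemp2* at -0.42 (adjusted p = 0.0551) and *Fbn1* at -0.38 (adjusted p = 0.0652, all edgeR). The median log2 fold change was -0.06 over the 10 genes and -0.02 over all genes tested.

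The calls for *Eln* and *Efemp1* depended on the fit and their directions did not. Over 10 alternatives the adjusted p ran from 0.00148 to 0.329 for *Eln* and from 0.00867 to 0.265 for *Efemp1*, and each passed in 3 of them. *Eln* passed without cycling cells (2.62, adjusted p = 0.0407 in edgeR, where 4.72% of all genes were called higher and 2.63% lower). That comparison was made in the fit with 14 sums of 7 classes and the main one in the fit with 8 sums of 4. The cells and the fit thus changed together. *Efemp1* passed among cells without a *Pdgfra* UMI (-2.65, adjusted p = 0.0355 in edgeR, where 2.34% of all genes were called higher and 1.29% lower). Both passed with DESeq2, which called 4.32% of all genes higher and 1.87% lower. Neither passed with the classes set by CPM of *Myh11*.

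**Figure D2:**
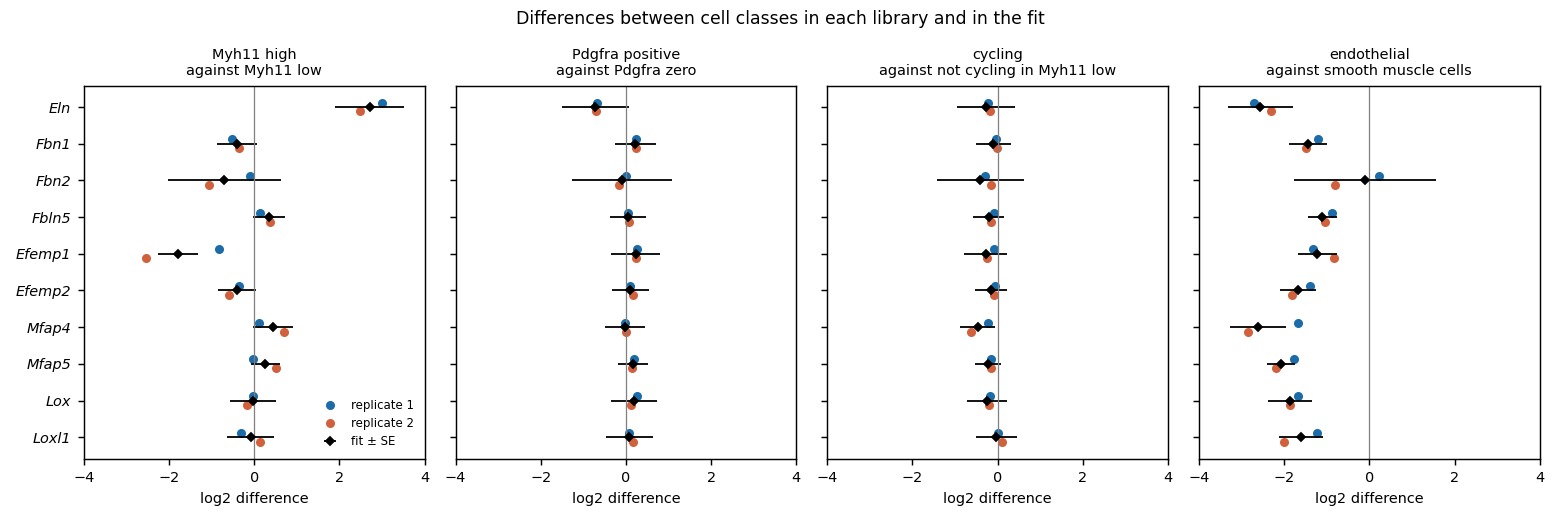
Log2 differences of the 10 genes between cell classes in 4 comparisons; colored points are the difference within each library, black diamonds the edgeR estimate without a block, and bars its standard error. *Eln* stands at 3.01 and 2.47 in the comparison by *Myh11* and *Efemp1* at -0.82 and -2.53, the points of the comparisons by *Pdgfra* and by cycling lie within 1 of 0, and in ECs all points but 1 of *Fbn2* lie below 0.

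Along *Myh11* itself the level of *Eln* rose stepwise in value. Cells with 0, 1, 2 to 4, 5 to 9, 10 to 19 and 20 or more *Myh11* UMIs had 149, 256, 362, 653, 965 and 2285 CPM of *Eln* in replicate 1. In replicate 2 the same bins had 393, 645, 1402, 1854, 2680 and 2665 CPM, with the last 2 bins level. *Efemp1* ran the other way, from 63.1 CPM at 0 UMIs to 18.6 CPM at 20 or more in replicate 1 and from 163 to 26.9 CPM in replicate 2. *Fbn1* went from 609 to 327 CPM and from 363 to 269 CPM, and *Fbln5* from 450 to 560 CPM and from 702 to 1098 CPM between the same end bins. *Mfap5* was level in replicate 1 (535 and 506 CPM) and higher at the top in replicate 2 (336 and 510 CPM). The bins use raw *Myh11* UMIs, and the end bins differed in depth. In replicate 1 the median depth was 21959 UMIs at 0 *Myh11* UMIs and 31002 UMIs at 20 or more. In replicate 2 it was 15606 and 23509 UMIs. These bins, and the quartiles that follow, were chosen after levels had been seen and are given as a description.

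*Eln* and *Efemp1* were also followed within the Myh11 low cells. Those that were not cycling were split within each library into quartiles of their *Acta2* level, *Acta2* being the smooth muscle actin. *Myh11* itself still differed over these quartiles, from 2.80 to 10.5 CPM in replicate 1 and from 2.12 to 9.57 CPM in replicate 2, so the split was not free of it. From the lowest to the highest quartile *Eln* had 129, 137, 158 and 232 CPM in replicate 1 and 239, 378, 433 and 663 CPM in replicate 2. *Efemp1* had 79.8, 60.6, 63.2 and 55.2 CPM in replicate 1 and 213, 176, 148 and 123 CPM in replicate 2. *Eln* was thus highest and *Efemp1* lowest in the quartile with the most *Acta2* in both libraries. *Mfap5* (591 and 393 CPM) and *Fbln5* (503 and 777 CPM) also had their highest values in this quartile in both libraries. *Fbn1* had its lowest value there in replicate 1 and not in replicate 2. The part of free RNA in the levels over the quartiles was not tested.

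**Figure D3:**
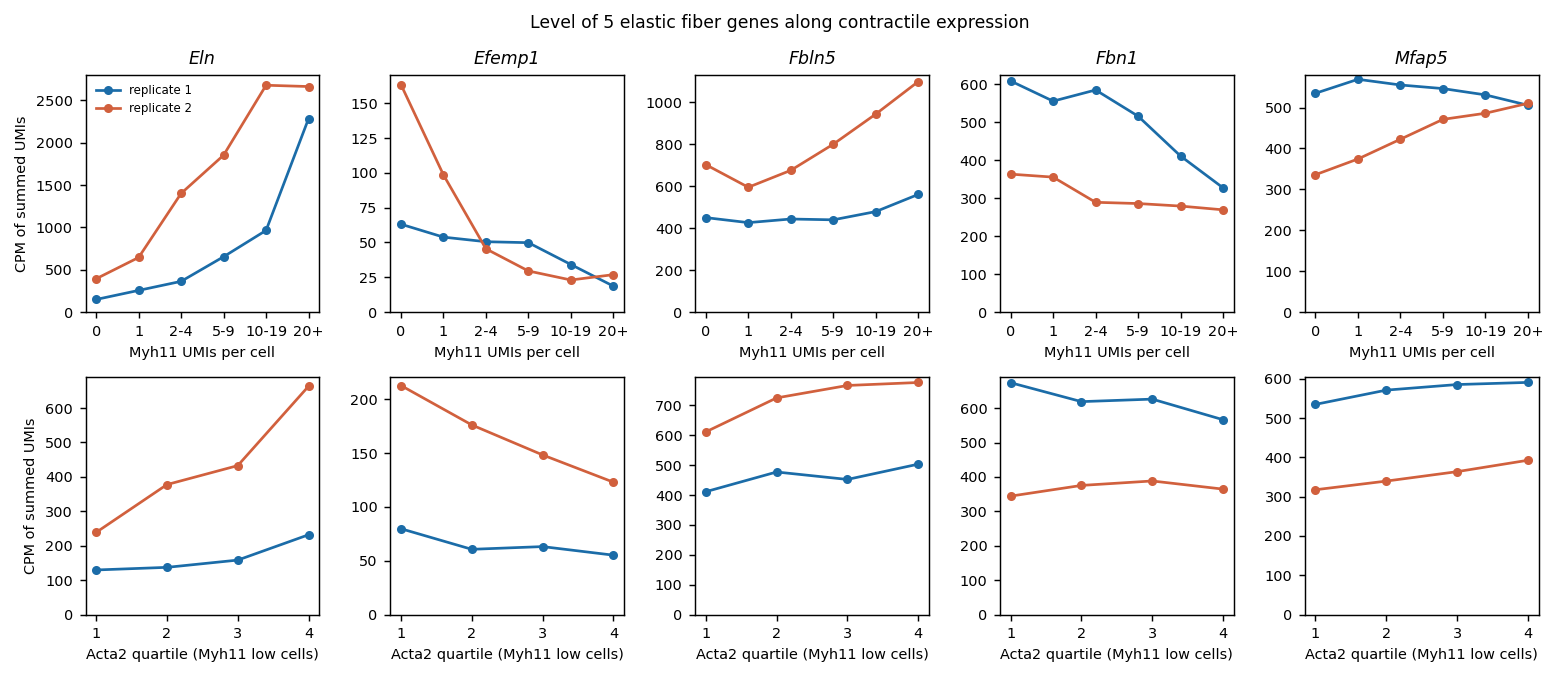
CPM of 5 elastic fiber genes in cells binned by *Myh11* UMIs (top) and, within Myh11 low cells that were not cycling, by quartile of *Acta2* (bottom); each line is 1 library and every y axis starts at 0. *Eln* goes from 149 to 2285 CPM and from 393 to 2665 CPM between the end bins of *Myh11*, and *Efemp1* goes down from 63.1 to 18.6 CPM and from 163 to 26.9 CPM.

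ECs offered a class of another lineage in the same dish. The fitted log2 fold change of ECs against the mean of Myh11 high and Myh11 low cells was below 0 for all 10 genes, with a median of -1.64, against -0.03 over all genes tested. In edgeR without a block, 4 of the 10 genes were called lower and 0 higher, where 8.81% of all genes were called lower and 11.5% higher. The 4 genes were *Mfap5* (-2.07, SE 0.33, adjusted p = 0.00687), *Mfap4* (-2.61, SE 0.66, adjusted p = 0.0360), *Efemp2* (-1.68, SE 0.43, adjusted p = 0.0366) and *Lox* (-1.86, SE 0.52, adjusted p = 0.0478). With the library as a block 8 genes were called lower in edgeR, where 17.1% of all genes were called lower and 17.4% higher: *Eln* (-2.64), *Fbn1*, *Fbln5* and *Loxl1* passed as well, and *Efemp1* (-1.23, adjusted p = 0.0755) and *Fbn2* did not. The mean gave Myh11 high and Myh11 low cells equal weight. In CPM, *Eln* in ECs was 2.32-fold and 2.11-fold below Myh11 low cells and 18.8-fold and 11.7-fold below Myh11 high cells. Without the 5% of cells with the most UMIs 8 genes were called, where 11.1% of all genes were called lower and 12.6% higher. Without the filter on low counts 1 gene was called, *Mfap5*, where 4.29% of all genes were called lower and 5.55% higher. DESeq2 called 9 genes lower, and 10.3% of all genes lower and 12.8% higher. The adjusted p of *Mfap5* ran from 1.04e-08 to 0.0166 over 6 alternatives. *Fbln5* had the smallest difference of the genes called with the block, at -1.09 (SE 0.08).

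The signal of the elastic fiber genes in ECs was uneven between cells and was compared with free RNA. Summed over the 10 genes, ECs had 1332 and 1094 CPM as a class, but the median EC had 364 and 413 CPM, and the 25% of ECs with the most such UMIs held 88.8% and 82.7% of them. In Myh11 low cells the corresponding 25% held 47.0% and 49.1%, and the median cell, at 3414 and 2776 CPM, was near the class level of 3668 and 3083 CPM. Single genes differed in their spread over ECs. A UMI of *Fbln5* was found in 65.7% and 70.2% of ECs, one of *Fbn1* in 65.7% and 41.8%, one of *Lox* in 44.1% and 31.2%, and one of *Loxl1* in 22.5% and 14.9%. In barcodes with at most 100 UMIs, which hold free RNA, the levels of 9 of the genes (all but *Fbn2*) were above those in ECs. The ratio of the EC level to the free RNA level ran from 0.211 for *Mfap4* to 0.694 for *Fbln5* in replicate 1 and from 0.0439 to 0.624 for the same genes in replicate 2. Reference genes of smooth muscle and matrix (*Lum*, *Dcn*, *Acta2*, *Tagln*, *Myh11*, *Pdgfra*, *Col1a1*) had ratios of 0.339 to 0.756 and 0.211 to 0.509. *Fbln5* was above all 7 of these in replicate 2 and below *Dcn* in replicate 1. For comparison, 8 endothelial genes had in the other cells a median of 6.83% and 6.08% of their free RNA level. This measure was chosen after a smaller set of genes had been tried. Single genes ran from 1.40% (*Cdh5*) to 55.7% (*Kdr*) in replicate 1 and from 1.74% (*Cldn5*) to 45.3% (*Kdr*) in replicate 2. The other cells may express some of these genes, so the median is not a measured share of free RNA. The part of free RNA and of droplets with more than 1 cell in the EC values was not tested, and no doublet caller was run.

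**Figure D4:**
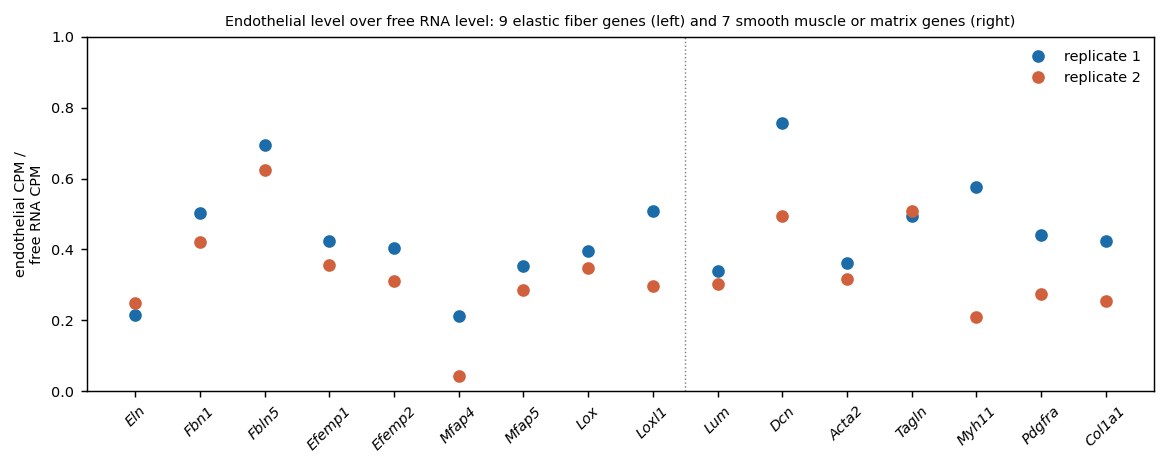
Level in ECs over the level in free RNA (barcodes with at most 100 UMIs), as a linear ratio per library, for 9 elastic fiber genes and 7 reference genes of smooth muscle and matrix. All ratios lie under 1, with *Fbln5* at 0.694 and 0.624 and *Eln* at 0.215 and 0.248.

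*Pdgfra* separated Myh11 low cells that were not cycling into 2033 and 2703 cells with a UMI and 738 and 1449 cells without. The log2 difference of *Eln* was -0.69 in replicate 1 and -0.70 in replicate 2, lower in Pdgfra positive cells, and the fit gave -0.72 (SE 0.78). None of the 10 genes was called, and edgeR called 0 of the 13123 genes tested (0.0%), with 190 of these and none of the 10 at an unadjusted p under 0.05, while DESeq2 called none of the 10, 0.00762% of genes higher and 0.114% lower. With the block, *Eln* had an unadjusted edgeR p of 0.00944 and an adjusted p of 0.751, and 0.00762% of genes were called in each direction. The median depth was 21191 and 15742 UMIs in the positive cells and 15338 and 12267 UMIs in the others. Among cells with 10000 to 30000 UMIs *Eln* was at -0.73. The other 9 genes had fitted values between -0.09 and 0.23, and 8 of the 10 genes had the same sign in both libraries, 7 of them above 0, where 63.2% of all genes tested had the same sign.

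Cycling was compared within Myh11 low and within Myh11 high cells. The cycling cells were deeper. Their median depths were 28147 and 19778.5 UMIs in Myh11 low cells, against 21191 and 15742 UMIs in the others with *Pdgfra* and 15338 and 12267 UMIs without. In Myh11 high cells they were 32773.5 and 24633 against 23754 and 18463 UMIs. The comparison was not repeated at matched depth. In Myh11 low cells the fitted values of all 10 genes were below 0, from -0.03 for *Loxl1* to -0.47 for *Mfap4*, with a median of -0.25 against -0.08 over all genes tested. Within single libraries 9 of the 10 were below 0 in both, and *Loxl1* was at -0.0025 in replicate 1 and 0.11 in replicate 2. Of all genes tested, 81.35% had the same direction in both libraries. None of the 10 was called without a block, where edgeR called 7.03% of genes higher and 1.17% lower. None of the 10 had an unadjusted edgeR p under 0.05, while 2495 of the 13123 genes tested had one. DESeq2 called none of the 10 either, and 8.88% of genes higher and 3.49% lower. With the block *Lox* fell by 0.26 (SE 0.07, adjusted p = 0.0224 in edgeR), where 12.6% of all genes were called lower, and the adjusted p of *Lox* ran from 0.0224 to 0.979 over 7 alternatives. In Myh11 high cells none of the 10 was called with or without the block, where 5.73% of genes were called higher and 0.533% lower without it and 10.4% and 5.1% with it. *Eln* in Myh11 high cells differed between cycling and other cells by 0.04 in replicate 1 and -0.24 in replicate 2. The difference of the cycling contrasts between Myh11 high and Myh11 low cells passed for none of the 10 genes.

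Many of these genes differed between the libraries. On the scale of log2 (CPM + 1), 7 of the 8 genes with at least 20 CPM differed by more than 1.5-fold between the libraries in Myh11 low cells, where 8.59% of all such genes did. Replicate 2 was higher in *Eln* (2.57-fold), *Efemp1* (2.55-fold) and *Fbln5* (1.55-fold), and replicate 1 was higher in *Fbn1*, *Mfap5*, *Lox* and *Loxl1*. In Myh11 high cells 4 of 8 genes passed this size, *Eln* and *Fbln5* higher in replicate 2 and *Efemp2* and *Lox* higher in replicate 1, against 10.8% of all genes, and *Fbn1*, whose plain CPM ratio was 1.501, fell just short on this scale. In ECs 8 of 8 passed it, against 9.77%. These are single libraries of 1 condition, so the differences have no test, and differences between preparations cannot be told apart from those of capture and sequencing.

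A wider list of 27 elastic fiber genes, of which 24 were tested, gave the surroundings. Between Myh11 high and Myh11 low cells 0 passed without a block in edgeR and 6 had an unadjusted p under 0.05, as had 1908 of the 12975 genes tested. With the block 2 rose and 6 fell, where 8.51% of all genes were called higher and 7.53% lower, so that the number that rose was near the share over all genes. *Loxl2*, another lysyl oxidase, rose by 0.95 on the log2 scale (30.9 and 31.0 CPM against 18.5 and 15.0), and *Ltbp1*, which tethers latent TGF-β to microfibrils, by 0.60. Lower were *Tll1*, a tolloid protease (-1.69), the fibulin gene *Fbln1* (-1.65) and *Emilin2*, an elastin interface protein (-1.64), besides *Fbln7*, *Mfap2* and *Fbln2*. *Fbln2*, the fibulin of the subendothelial matrix, had 758.5 and 308 CPM in Myh11 high cells and 1204 and 832.5 CPM in Myh11 low cells.

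In ECs 3 genes of the wider list were higher without a block and 1 was lower. *Ltbp4*, which aids elastin assembly with fibulin-5, had 126 and 105 CPM in ECs and at most 7.10 CPM in the other classes (log2 fold change 4.09). *Hmcn1*, a large fibulin family member, was at 3.06 and 6.85 CPM (4.13). This rested on few counts, 6 UMIs in 6 of 102 ECs and 12 UMIs in 9 of 141 ECs. *Atp7a*, the copper transporter that supplies the lysyl oxidases, was at 36.7 and 36.5 CPM (1.44, from 10.2 to 17.2 CPM in both Myh11 classes). *Ltbp1* was lower by 1.33 on this scale. With the block the same 3 were higher and 7 were lower. The shares of all genes called were 11.5% higher and 8.81% lower without a block and 17.4% and 17.1% with it, so that the 3 higher genes of 24 were near the share over all genes.

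Of 10 elastin-degrading enzymes 7 were tested. Between Myh11 high and Myh11 low cells 0 were called without a block, where 0.139% of all genes were called lower, and 4 were lower with it, where 7.53% were: *Ctss* (-6.46), *Mmp12* (-5.65), *Ctsk* (-1.03) and *Mmp2* (-0.95). *Ctss* and *Mmp12*, an elastase of macrophages, were carried by few cells. *Mmp12* had 580 and 389 UMIs in Myh11 low cells but was found in 0.531% and 0.205% of them, and the 5 macrophage markers summed to 11.7 and 9.10 CPM there against 5.75 and 4.48 CPM in Myh11 high cells. This sum mixed common and rare markers. *Csf1r* was found in 9.05% and 5.69% of Myh11 low cells and in 10.1% and 3.53% of Myh11 high cells. *Ptprc* was found in 0.253% and 0.0746% of Myh11 low cells and in 0 Myh11 high cells of both libraries. For *Adgre1* the shares were 0.303% and 0.0746% against 0 and 0.114%. The part of macrophages in the differences of *Ctss* and *Mmp12* was not tested. *Ctsk*, a collagenolytic and elastolytic cathepsin, had 44.2 and 40.3 CPM in Myh11 high cells and 59.5 and 130 CPM in Myh11 low cells. In ECs *Ctsk* (-1.43) and *Mmp14*, a membrane-bound metalloprotease (-1.23), were lower without a block, where 8.81% of all genes were.

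The genes whose pattern was most like that of an elastic fiber gene were sought over 14 sums (7 disjoint classes in 2 libraries, centered within each library) among 5833 genes of at least 20 CPM. For *Eln* they were *Actn1*, *Tgfb2* and *Myo1c* (Pearson r 0.98 each), and for *Efemp1* they were *Sept11*, *Plac8* and *Fbln2* (r from 0.98 to 0.99). *Efemp2* was most like *Col1a2*, *Col6a1* and *Rhobtb3*, *Fbn1* most like *Tuba1a*, *Adamts2* and *Ssr3*, and *Lox* most like *Vasn*, *Phlda1* and *Tead1*. *Mfap5* was most like *Glipr2*, *Sdc4* and *Chpf*, *Loxl1* most like *Mlec*, *Stk39* and *Hmgn3*, and *Mfap4* most like *Fkbp10*, *Tmem160* and *Tgfb1i1*. Among the 10 genes the pair of *Fbn1* and *Efemp2* had an r of 0.99 and *Mfap4* and *Mfap5* one of 0.97, while *Eln* and *Efemp1* had one of -0.33. The points share 2 libraries and their free RNA, and the 2 EC sums lie far from the rest, so these values are descriptions of 14 points without a test.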

How the data were processed

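The authors aligned the reads with Cell Ranger to the mm10 build and deposited UMI counts for every gene in every barcode, as whole numbers, not normalized and not restricted to cells. Version 3.0.2 stands in the matrix header of replicate 1 and version 3.1.0 in that of replicate 2, and the submitters' processing notes name 3.0.2, a difference that could not be resolved here. The deposited barcodes held 127949633 and 132561822 UMIs. Cell filters follow the study's methods. Gene positions are from GENCODE M21 of GRCm38, which held 30934 of the 31053 identifiers.

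UMIs were summed per library and class, since cells are not replicates, and tested with edgeR 4.0.16 (R 4.3.3, TMM, filterByExpr) on 8 sums of 4 disjoint classes (ECs and the others by *Myh11* UMIs: 5 or more, 2 to 4, at most 1) or on 14 sums of 7 classes, which also split by cycling and *Pdgfra*. With 2 libraries per class no permutation test of a single gene could pass, since the smallest p of 2 against 2 is 0.33. Standard errors were obtained by dividing each log2 fold change by the root of its F statistic. DESeq2 1.42.0 was an alternative. Differences in a single library are of log2 (CPM + 1). Sums of the same number come from the same library and culture, which pairs them, and their deviations from the class means correlated at 0.311 to 0.720 over 12975 genes. On simulated counts with 200 changed genes the comparison by *Myh11* recovered 89% of changes of 1 on the log2 scale and 100% of changes of 2, with 5.03% false calls. The simulated sums were independent, with a small set spread and no difference between the libraries. These shares therefore do not give the power in the data, where *Eln* at 2.71 was not called without a block (adjusted p = 0.191 in edgeR).

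Exact binomial intervals are at 95%, and 3 counts are the limit set for a count of 0. Expected shares at 3000 UMIs are hypergeometric. All 10 elastic fiber genes are named, the wider lists are given as counts with up to 3 named genes per direction among those called, and likeness names 3 genes each, except for *Fbln5* and *Fbn2*, for which it is not reported here. The members, lists and classes were chosen with earlier results of these data known. Named beyond this rule, after their values had been seen, were *Fbln7*, *Mfap2*, *Fbln2* and *Mmp2*. Nothing in the labels says that the libraries are from separate animals, so the spread between the libraries may be technical. Without a block, p-values measure this spread and treat sums of the same library as independent, although their deviations correlated. With the library as a block, a shift shared by all classes of a library is removed, and p-values measure the spread that remains. The remaining spread may also be technical.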

Additional observations from a re-analysis of the deposited data

How the results depend on the processing

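Of the single-gene results under the alternatives, 348 kept their direction and their side of the threshold, 21 came past it, 3 dropped below it and 8 reversed. The 8 reversals were of values near 0: in the comparison by *Pdgfra*, *Fbn2* was at 0.0156 with cells of at least 1000 UMIs, 0.0263 without the 5% deepest cells and 0.18 among cells with 10000 to 30000 UMIs, *Mfap4* was at 0.0141 without the filter and at 0.0230, 0.0409 and 0.0915 under those same 3 cell selections, and in the comparison by cycling in Myh11 low cells *Loxl1* was at 0.0042 with free RNA subtracted.

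Between Myh11 high and Myh11 low cells 125 genes were called, against 965 without cycling cells (in the fit with 14 sums), 2081 with the library as a block, 11 without the filter on low counts, 390 with classes by CPM, 443 among cells without a *Pdgfra* UMI and 804 with DESeq2. Of the 10 elastic fiber genes 0 were called, against 1 without cycling cells, 2 with the block, 1 without *Pdgfra* and 2 with DESeq2. In ECs 2632 genes were called, against 4477 with the block, and 4 of the 10, against 8 with the block, 8 without the 5% deepest cells, 1 without the filter and 9 with DESeq2. By *Pdgfra* 0 genes were called, against 2 with the block, 1 without the filter, 1 with at least 2 *Pdgfra* UMIs and 16 with DESeq2. By cycling, 1076 genes were called in Myh11 low cells, against 3440 with the block and 1623 with DESeq2, and 0 of the 10, against 1 with the block, and in Myh11 high cells 822, against 2036 with the block. The block changed no other call of the 10 genes, and the cause of these differences was not tested. The median share of cells with a UMI over the 10 genes in Myh11 low cells was 90.5%, and 56.6% after thinning.

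Counts of calls could not be given for a single library, which has no residual degrees of freedom. The alternatives without shared barcodes, by depth and without *Pdgfra* UMIs were chosen after seeing the data, and without shared barcodes 129 genes and 0 of the 10 were called by *Myh11*. With 2 libraries the spread is estimated from few sums, *Fbn2* and *Mfap4* are limited by depth, and the ECs are few.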
